A study of Mus musculus with 48 samples.

Results

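Rab proteins are the largest family of small GTPases that steer membrane traffic, and 59 genes of the family were read in mouse liver across 48 consecutive hours. The genes were taken by their symbol alone, Rab followed by a number, at most one letter and at most one further number, among probe sets to which the platform annotation gives a single gene. They are 59 of 18194 genes, with 132 of the 45101 probe sets, and 21 of them are read by 1 probe set. Each gene was followed on its probe set of highest mean intensity. The samples were livers of 6-week-old male C57BL/6J mice that had been kept under alternating light and dark for a week and were then moved to constant darkness. One time point was taken per hour over CT18 to CT65 (subjective dawn being CT0 and subjective dusk CT12), and RNA of 3 to 5 mice was pooled for each hour and hybridised to 1 array. All pools share strain, sex, age and the absence of light, so time is the only labelled factor that differs. Each hour is also a different pool of mice on its own array, and hour, pool and array cannot be told apart. An hour has no replicate, so every error below comes from the scatter of the 48 pools around a fitted curve. CT18 to CT41 are called the first cycle and CT42 to CT65 the second.

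A Rab protein is switched on when a guanine nucleotide exchange factor loads it with GTP, and switched off when a GTPase-activating protein makes it hydrolyse that GTP. In its active form it sits on one kind of membrane and recruits effectors such as tethers, motors and sorting adaptors, while GDP dissociation inhibitor keeps the inactive, prenylated form soluble. In hepatocytes this machinery carries albumin and lipoproteins from the endoplasmic reticulum (ER) through the Golgi to the blood side of the cell, takes up and recycles receptors through endosomes, and moves cargo across the cell to the bile canaliculus. The family was sorted by the membrane on which each protein is best known. Of the 59 genes, 15 belong to ER and Golgi (Rab1a, Rab1b, Rab2a, Rab2b, Rab6a, Rab6b, Rab18, Rab19, Rab29, Rab30, Rab33a, Rab33b, Rab34, Rab36 and Rab43) and 21 to endosomes (Rab4a, Rab4b, Rab5a, Rab5b, Rab5c, Rab7, Rab7b, Rab9, Rab9b, Rab11a, Rab11b, Rab12, Rab14, Rab15, Rab17, Rab20, Rab21, Rab22a, Rab25, Rab31 and Rab35). Another 13 act in exocytosis (Rab3a, Rab3b, Rab3c, Rab3d, Rab8a, Rab8b, Rab10, Rab13, Rab26, Rab27a, Rab27b, Rab37 and Rab44), and the other 10 were kept apart (Rab23, Rab24, Rab28, Rab32, Rab38, Rab39, Rab39b, Rab40b, Rab40c and Rab42). The assignment is a simplification, since 10 of the genes, among them Rab14 and Rab43, are placed on more than one compartment.

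The labelled tissue matched its markers, with all 6 hepatocyte genes bright at mean intensities of 29570 to 838200. Array medians lay between 95.2 and 110.9, and a mean under 100 is treated below as near background. The upper end of the arrays had a small rhythm of its own, since the 75th percentile of an array, between 797.1 and 1099, had a 24 h amplitude of 0.057 ± 0.013 (SE) on the log2 scale with a peak at CT5.7. The median correlation of a pool with the other pools averaged 0.989 over the last 6, CT60 to CT65, against 0.994 over CT36 to CT41. Among earlier pools CT27 stood at 0.989, and CT25, CT31 and CT46 at 0.99. Endothelial markers (0 of 6 under 100) had a median log2 difference of -0.52 between CT60 to CT65 and CT36 to CT41. Over the 48 pools the mean log2 level of the endothelial list ranged from 9.96 to 11.13, that of the hepatocyte list from 18.4 to 18.6, that of the 8 Kupffer cell genes from 11.28 to 12.54 and that of 3 pancreatic genes from 7.9 to 15.79. The part of these shifts in the Rab profiles was not tested, and in whole tissue fewer cells of a type cannot be told apart from less RNA per cell.

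A transcript was called rhythmic when Fisher's G-test, which asks whether one Fourier frequency holds most of the variance, and a cosine fit with a free period length both gave a q-value under 0.05. Its class was set by the period length of the cosine fit. By this rule 7 of 59 Rab genes, or 11.9%, had a period of about 24 h, against 14.2% of all genes: Rab43 and Rab1b of ER and Golgi, and Rab11a, Rab17, Rab14, Rab5a and Rab12 of endosomes. Rab33b was the single member with a 12 h period (1.69%, against 1.13% of all genes), and Rab28 the single member with an 8 h period (1.69%, against 0.39%). Rab32 passed both q-values as well, which makes 10 genes, 16.9% of the family and 16.9% of all genes, but its best period lay at the upper end of the search, 30 h. Among genes of mean intensity 100 or more, 7 of 45 Rab genes (15.6%) were in the 24 h class against 22.3% of all such genes, so the family was not called more often than the array as a whole. After quantile normalization 11 Rab genes were in the 24 h class, 6 of them among the 7, and with only probe sets whose name ends in a plain _at, which leaves out those that read several transcript forms or genes, 3 were (Rab1b, Rab43 and Rab5a). With either cycle alone Rab14 was the 1 gene called. No share over all genes is given for these other settings, so the changes cannot be read as particular to Rab genes. The members nearest the threshold were Rab12 and Rab33b, with G-test q of 0.032 and 0.0329, on the inner side, and Rab24, Rab11b and Rab10, with 0.0751, 0.0846 and 0.0853, on the outer side.

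**Figure D1:**
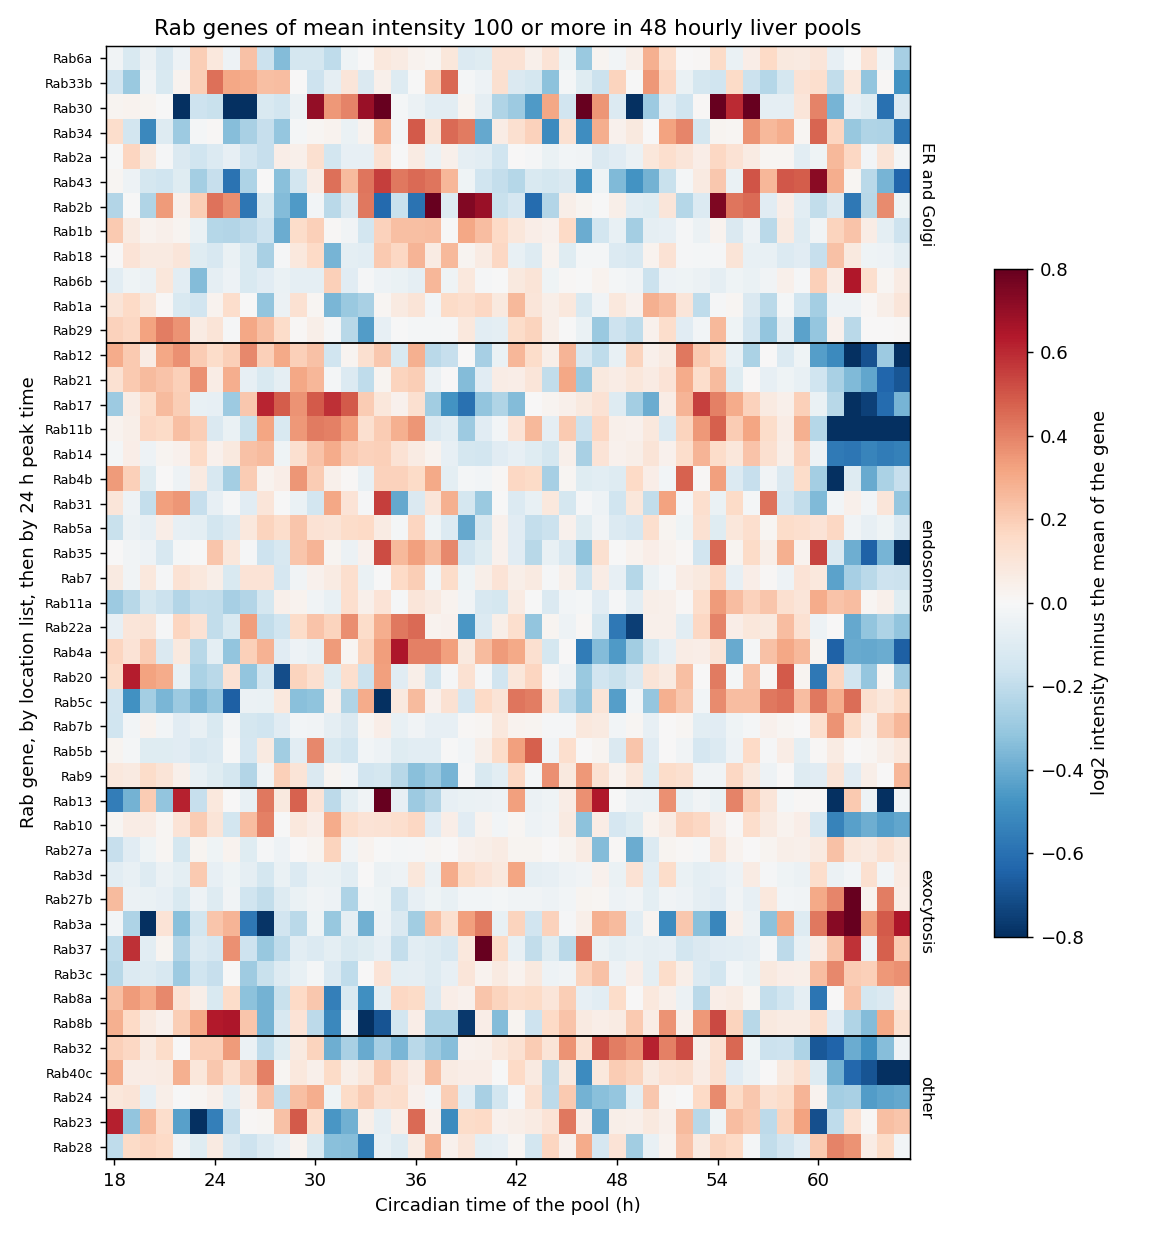
Log2 intensity minus the mean of the gene (colour, cut at 0.8 in either direction) of the 45 Rab genes of mean intensity 100 or more in each hourly pool from CT18 to CT65, grouped by location and ordered by 24 h peak time. Rab43 was high before subjective dusk in both cycles, and Rab12, Rab11b, Rab14 and Rab40c turned low together in the last pools.

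A second measure gave size and timing. A limma model of log2 values held a straight-line trend plus sine and cosine terms of 24, 12 and 8 h, and p-values were adjusted by Benjamini-Hochberg over all probe sets. Amplitude is the height of the fitted curve above its middle on the log2 scale, and the fold is peak over trough. A 24 h component was found in 36 of 59 Rab genes (61%, against 52.7% of all genes) or 30 of 45 of mean 100 or more (66.7% against 56.4%). A 12 h component was found in 6 (10.2% against 7.13%), namely Rab33b, Rab17, Rab9, Rab43, Rab11b and Rab30, and an 8 h component in Rab28 and Rab17 (3.39% against 2.13%). Without CT60 to CT65 the number with a 24 h component was 19, of which 18 were among the 36. Over all genes of mean 100 or more the share fell as well, from 56.4% to 45.5%. The median 24 h amplitude of the 45 brighter Rab genes was 0.116, and that of all genes of mean 100 or more was 0.126. Dim members need caution here. Of the 14 Rab genes under 100, 6 had a 24 h component (42.9%, against 46.9% of all genes under 100), with amplitudes of 0.013 to 0.033 and peaks between CT15.7 and CT17.3, and 13 had an upward trend over the 2 days (92.9% against 73.3%). The 25th percentile of the arrays had the same kind of curve, 0.018 ± 0.0042 (SE) with a peak at CT17.2. Probe sets of a gene often differed, since of 42 other measurable probe sets, of 25 genes, 17 had r of 0.5 or more with the one followed and the median r was 0.34.

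Rab43, which acts in traffic between ER and Golgi, had the largest 24 h rhythm of the family. Its intensity ran from 3549 at CT65 through a median of 5344 to 9096 at CT60. In the 12 pools of CT6 to CT11 it was between 5326 and 8094, and in the 12 pools of CT18 to CT23 between 3963 and 5580, so that these blocks overlapped only at their edges. The 24 h amplitude was 0.38 ± 0.033 (SE), a 1.7-fold swing, with a peak at CT10.4 ± 0.3 (limma, adjusted p = 8.54e-12). The rise was of about the same size in both cycles, with amplitudes of 0.46 ± 0.083 and 0.50 ± 0.088 when each was fitted by itself and peaks at CT11.1 and CT10.2. A 12 h component of 0.16 ± 0.031 stood beside the 24 h one (adjusted p = 0.00174), which gives the profile a narrow crest and a long flat trough. The other measurable probe set of Rab43, at a mean of 414.5, peaked at CT13.4 with an amplitude of 0.09 that did not pass the test (adjusted p = 0.192).

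Rab1b, which with its paralog Rab1a governs the step from ER to Golgi, peaked later. Its intensity lay between 3014 at CT28 and 4905 at CT39, with a median of 3977. The block of CT12 to CT17 was the highest, with a median of 4451, and that of CT0 to CT5 the lowest, with 3652, but their ranges of 3527 to 4905 and 3014 to 4390 overlapped widely. The amplitude was 0.16 ± 0.028 (1.25-fold) with a peak at CT13.7 ± 0.65 (adjusted p = 9.52e-05). Rab1a, bright at 61890 to 96980, had an amplitude of 0.10 ± 0.027 with a peak at CT19.6 ± 1.1 (adjusted p = 0.0154), and was not called by both tests. The fitted peaks of both paralogs thus lay in subjective night, that of Rab1b in its first hours and that of Rab1a later. The time of Rab1a is loosely set. Its median was 83260 at CT12 to CT17, 83360 at CT18 to CT23 and 83180 at CT0 to CT5. Only CT6 to CT11 was lower, at 76360. Its amplitude was 0.13 ± 0.042 in the first cycle alone and 0.05 ± 0.05 in the second.

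Rab30, a Golgi Rab, swung the most widely of all named members but without a settled period. It was read at 285.7 at CT25, at a median of 613.9 and at 1492 at CT46. The block of CT6 to CT11 held values of 612.9 to 1363, almost clear of the 285.7 to 647.7 of CT0 to CT5, while the highest reading of all stood alone in the block of CT18 to CT23. Its 12 h component of 0.35 ± 0.079 (1.63-fold, adjusted p = 0.0124), with crests 8 h after each of CT0 and CT12, was larger than its 24 h component of 0.25 ± 0.082 (adjusted p = 0.0328), and the G-test q was 0.132. Leaving out single pools ended the 24 h call in 6 of 48 cases, and neither component of Rab30 passed without CT60 to CT65 (adjusted p = 0.123 at 24 h and 0.0838 at 12 h), nor the 24 h one after quantile normalization (0.138). A dim second probe set, at a mean of 135.7, peaked at CT19.4 with 0.08 and did not pass the test (adjusted p = 0.517).

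Rab33b, a Golgi Rab that binds the autophagy protein Atg16l1, was the 12 h member. Its intensity ran from 1894 at CT65 through 2611 to 3628 at CT38. The blocks of CT0 to CT5 and CT12 to CT17 had the higher medians, 3049 and 2646, and CT6 to CT11 and CT18 to CT23 the lower ones, 2445 and 2429, with overlapping ranges. The 12 h amplitude was 0.18 ± 0.031 (1.28-fold), with crests 1.4 ± 0.33 h after CT0 and after CT12 (adjusted p = 0.000629), and the cosine period was 11.8 h. Each cycle fitted alone gave the crest at 1.3 and 1.5 h, with amplitudes of 0.19 and 0.17. Its 24 h amplitude of 0.07 did not pass the test (adjusted p = 0.111). Rab34, which positions lysosomes from the Golgi, ran from 1065 to 2247 with a median of 1618, and its 24 h amplitude of 0.16 ± 0.057 missed the threshold (adjusted p = 0.0574), but passed it when any of 10 single pools was left out.

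**Figure D2:**
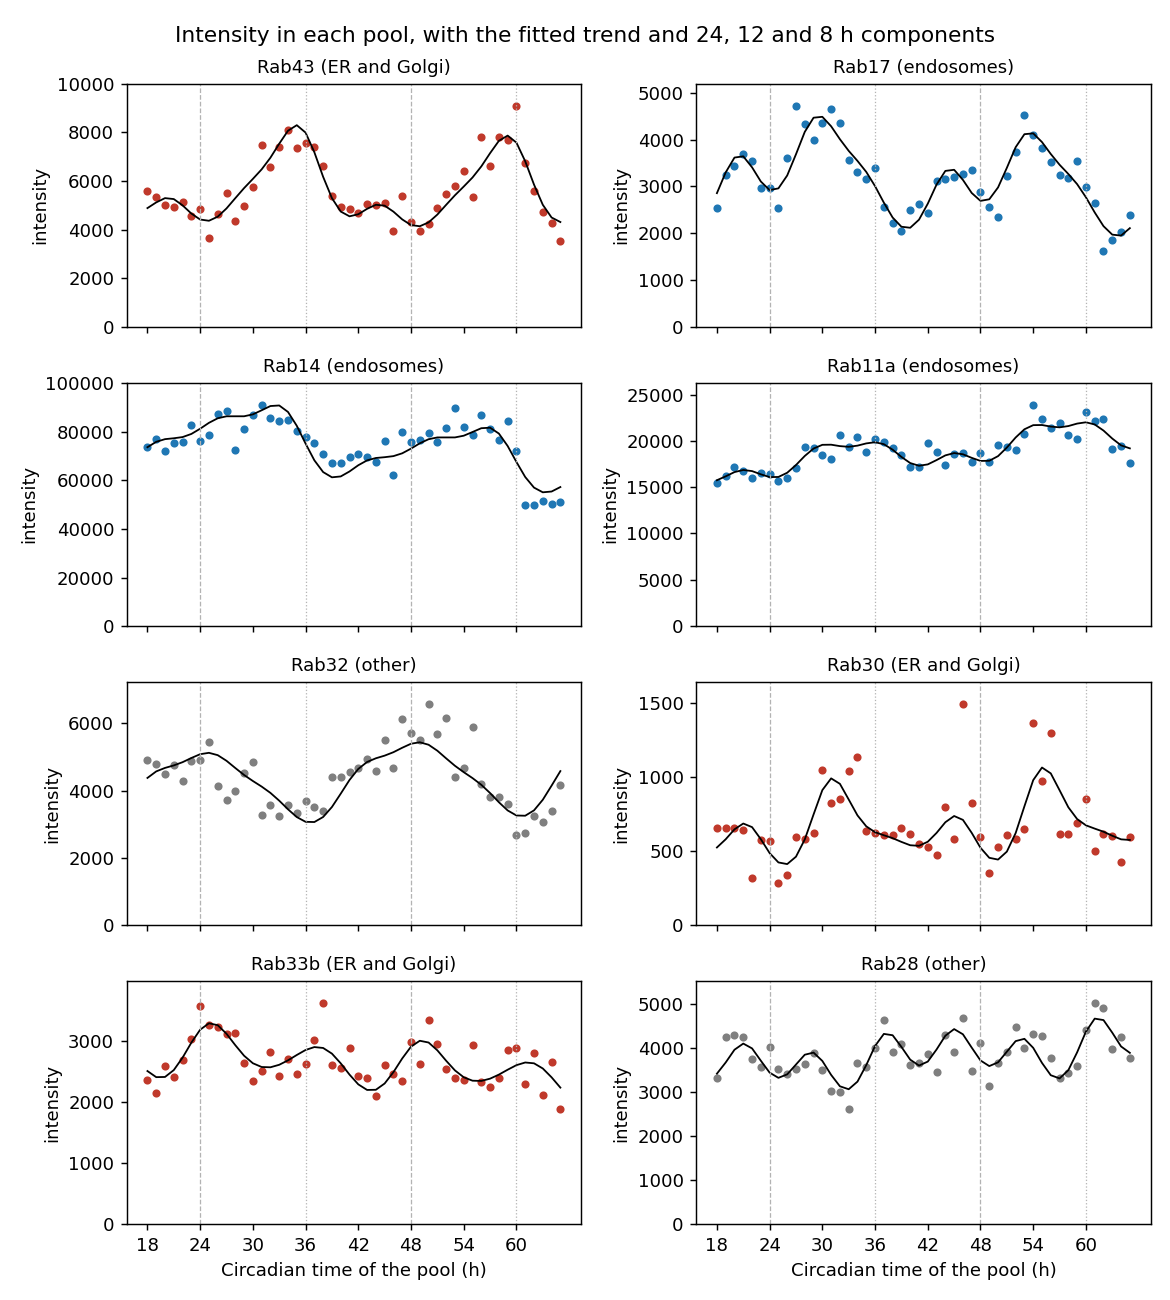
Intensity (linear axis from 0) of 8 Rab genes in each pool against circadian time, with the fitted curve in black; dashed lines mark CT24 and CT48 and dotted lines CT36 and CT60. Rab43 and Rab17 returned to like heights in both cycles, Rab14 dropped after CT60, Rab32 swung more in the second cycle than in the first, and Rab33b and Rab28 had several crests a day.

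Rab17, found mainly in epithelia, where it serves recycling and transport across the cell, had the largest rhythm among the endosomal members. It was lowest, 1624, at CT62, had a median of 3211 and was highest, 4720, at CT27. Values of CT6 to CT11 lay between 3168 and 4656 and those of CT12 to CT17 between 1624 and 3387, which overlap at their ends. The 24 h amplitude was 0.34 ± 0.032 (1.59-fold) with a peak at CT5 ± 0.4 (adjusted p = 1.73e-10), and the 12 h amplitude was 0.22 ± 0.033 with crests 7.9 h after CT0 and after CT12 (adjusted p = 4.11e-05). An 8 h component of 0.14 was found too (adjusted p = 0.0404), but did not pass without CT60 to CT65 (0.052) or after quantile normalization (0.214). Rab17 was the only Rab gene with a 12 h component in either cycle taken alone, and had one in both. Its other probe set, at a mean of 809.7, followed it with r = 0.54 over the 48 pools, and its 24 h amplitude of 0.12 at CT6.1 did not pass the test (adjusted p = 0.159).

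Rab14, which moves cargo between the trans-Golgi network and endosomes, was bright throughout. It was read between 49800 at CT62 and 91090 at CT31, with a median of 76390. Subjective day stood above the evening, with 76770 to 91090 at CT6 to CT11 against 49800 to 77780 at CT12 to CT17, a small overlap. The lowest evening readings, 49800 to 51400, were those of CT61 to CT65, while CT36 to CT41 held 67080 to 77780. The amplitude was 0.21 ± 0.025 (1.34-fold) with a peak at CT5.5 ± 0.5 (adjusted p = 4.47e-08). Without CT60 to CT65 it was 0.15 (limma, adjusted p = 4.41e-07). Of the 6 other measurable probe sets of Rab14, the brightest at a mean of 18040 was also in the 24 h class, with 0.20 at CT4.4 and r = 0.88 with the first, and another at 10400 had 0.17 at CT5.5 (r = 0.87, adjusted p = 0.000612). The other 4 did not pass the test, with amplitudes of 0.06 to 0.16.

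Rab11a and Rab11b serve recycling endosomes. Rab11a rose by day on a steady upward course, from 15400 at CT18 through a median of 18920 to 23890 at CT54. Its amplitude was small, 0.11 ± 0.015 (1.17-fold), with a peak at CT8.9 ± 0.5 (adjusted p = 5.77e-07), and its trend was 0.15 ± 0.02 per 24 h (adjusted p = 2.58e-06). A second probe set of Rab11a, at a mean of 4371 and with r = 0.35 to the first, had 0.08 and did not pass the test (adjusted p = 0.0516). Rab11b ran from 2312 at CT65 through 5029 to 6561 at CT54. Its 24 h amplitude was 0.27 ± 0.05 (1.45-fold) at CT5.2 ± 0.78 (adjusted p = 0.000221), and a 12 h component of 0.23 ± 0.051 (adjusted p = 0.00993), but missed the G-test threshold. Without CT60 to CT65 the 24 h amplitude of Rab11b was 0.13 (adjusted p = 0.0104) and that of Rab11a 0.10, and the 12 h amplitude of Rab11b was 0.13 (adjusted p = 0.0439). The profiles of the pair had r = -0.05 over the 48 pools. A dim probe set of Rab11b, at a mean of 161.1, ran the other way with 0.09 at CT16.6 (adjusted p = 0.0265), so the direction for Rab11b rests on its brighter probe set.

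Rab5a, which drives fusion of early endosomes, and Rab12, which routes receptors from recycling endosomes to lysosomes, completed the called endosomal members. Rab5a was read at 17510 at CT39, a median of 22980 and 27160 at CT29, with an amplitude of 0.12 ± 0.02 (1.17-fold) and a peak at CT7.1 ± 0.71 (adjusted p = 8.33e-05). Its blocks overlapped at every hour, and CT6 to CT11 had the highest median, 25160. Rab12 ran from 823.4 at CT65 through 1625 to 2103 at CT52, with 0.18 ± 0.04 (1.29-fold) at CT2.8 ± 0.84 (adjusted p = 0.00153). Most of its low values belonged to the end of the series, since its mean log2 level in CT60 to CT65 minus that in CT36 to CT41 was -0.54, and without CT60 to CT65 its amplitude was 0.12 (adjusted p = 0.0329). The call of Rab12 by both tests was lost with Benjamini-Hochberg adjustment and after quantile normalization. It was also lost with the trend removed before the G-test and with plain _at probe sets. Another probe set of Rab12, near background at a mean of 100.9, had r = -0.07 to the first and did not pass (limma, adjusted p = 0.489). Rab4a, for rapid recycling, ran from 2210 at CT65 through 3567 to 5431 at CT35 with 0.24 ± 0.047 at CT10.9 ± 0.69 (adjusted p = 0.000481), and the same late minus early difference was -0.71. Its call was lost without the trend term (adjusted p = 0.0524). Rab9, which returns receptors from late endosomes to the Golgi, stood apart from these day-phased members with 0.14 ± 0.023 at CT22.8 ± 0.59 (adjusted p = 4.62e-05).

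Rab32 and Rab28 belong to neither location. Rab32, which acts on lysosome-related organelles and anchors protein kinase A at mitochondria, was lowest at CT60, 2680, had a median of 4416 and reached 6581 at CT50. The block of CT18 to CT23, 4298 to 6123, lay above that of CT12 to CT17, 2680 to 4558, apart from a narrow overlap. The 24 h amplitude was 0.36 ± 0.045 (1.64-fold) with a peak at CT0 ± 0.44 (adjusted p = 1.61e-07), second in size to that of Rab43. Rab28, a Rab of cilia, ran from 2624 at CT33 through 3817 to 5024 at CT61. Its 8 h amplitude was 0.16 ± 0.026 (1.25-fold), with the first crest of the day 5 ± 0.2 h after CT0 (adjusted p = 0.00192), at a cosine period of 8.3 h. Each cycle alone gave 8 h amplitudes of 0.16 and 0.18 with crests at 4.6 and 5.5 h, and its second probe set, with r = 0.65, gave 0.12 (adjusted p = 0.427).

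The difference between cycles was tested for every gene by an interaction of cycle with the 24 h pair. It passed in 4 Rab genes (6.78%, against 7.1% of all genes). The amplitudes given next come from each cycle fitted by itself with a trend, while the joint test held a cycle mean and no trend. The p-values therefore do not test those amplitudes directly. Rab32 had an amplitude of 0.21 ± 0.086 on the first day and 0.44 ± 0.09 on the second day (adjusted p = 0.0012), Rab11b 0.13 and 0.42 (adjusted p = 0.0104), Rab14 0.14 and 0.28 (adjusted p = 0.0314), and Rab40c, which carries a SOCS box and joins a ubiquitin ligase, 0.07 and 0.35 (adjusted p = 0.0312). All 4 were lower in CT60 to CT65 than in CT36 to CT41, by log2 differences of -0.32, -0.81, -0.41 and -0.69 in that order. Without those 12 pools none of the 4 passed, and adjusted p was between 0.881 and 0.919. The interaction with the 12 h pair passed in limma in 0 Rab genes and 0% of all genes, and 3 Rab genes (Rab2a, Rab27b and Rab29) had an unadjusted p under 0.05 (5.08%, against 10.9% of all genes).

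The comparison of ER and Golgi with endosomes is descriptive, since genes are not replicates. By both tests 2 of 15 ER and Golgi Rabs (13.3%) and 5 of 21 endosomal Rabs (23.8%) were in the 24 h class, against 14.2% of all genes. In limma a 24 h component was found in 8 of 15 (53.3%) and in 13 of 21 (61.9%), against 52.7%, and a 12 h component in 3 of each (20% and 14.3%, against 7.13%), Rab30, Rab33b and Rab43 against Rab9, Rab11b and Rab17. The median 24 h amplitude was 0.07 for ER and Golgi and 0.11 for endosomes, against 0.06 over all genes. With dim members left out it was 0.09 and 0.12, against 0.126 over all genes of mean 100 or more. Rab2a, read at 31030 to 42250, had an amplitude of 0.03 ± 0.019 that did not pass the test. Rab6a, a Golgi Rab of retrograde transport, depended on the probe set. The one followed here, read at 9136 to 14170, had 0.01 ± 0.026, and another, at a mean of 11520 and with r = 0.51 to the first, had 0.10 at CT8.9 and passed (adjusted p = 0.0168).

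Among genes of mean 100 or more with a 24 h component, 10 of 12 endosomal Rabs peaked in subjective day, CT0 to CT12 (83.3%), and the exceptions were Rab7b and Rab9. Of the ER and Golgi Rabs 2 of 6 did so (33.3%), Rab43 and Rab30, while Rab1a, Rab1b, Rab6b and Rab29 peaked in subjective night. Over all genes the share was 58.2% of 6313. Exocytic Rabs resembled ER and Golgi in this count, with 2 of 8 by day (25%), Rab10 and, on the boundary at CT12 ± 1.2, Rab27a. Of the other 6, Rab3c and Rab37 had means of 119.4 and 117.2, little above the array medians. Both peaked at CT16.9, close to the CT17.2 of the 25th percentile of the arrays. Without CT60 to CT65 neither had a component, and the exocytic count was 1 of 4. Of all 13 exocytic Rabs 0 were called by both tests, against 16.9% of all genes, while limma found a 24 h component in 9 (69.2%, against 52.7%). Leaving out CT60 to CT65 gave 8 of 10 endosomal and 1 of 3 ER and Golgi Rabs by day, and quantile normalization 10 of 13 and 1 of 5. The linear trend was upward in 21 Rab genes (35.6%, against 40.3% of all genes) and downward in 15 (25.4% against 18.2%). Endosomal Rabs held 10 of the 15 downward trends and ER and Golgi Rabs 2, which is 55.6% of the endosomal members of mean 100 or more and 16.7% of those of ER and Golgi, against 29.3% of all such genes. In the last pools the median log2 difference of CT60 to CT65 minus CT36 to CT41 was -0.21 for the brighter endosomal Rabs, -0.14 for those of ER and Golgi and -0.04 for all genes of mean 100 or more.

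**Figure D3:**
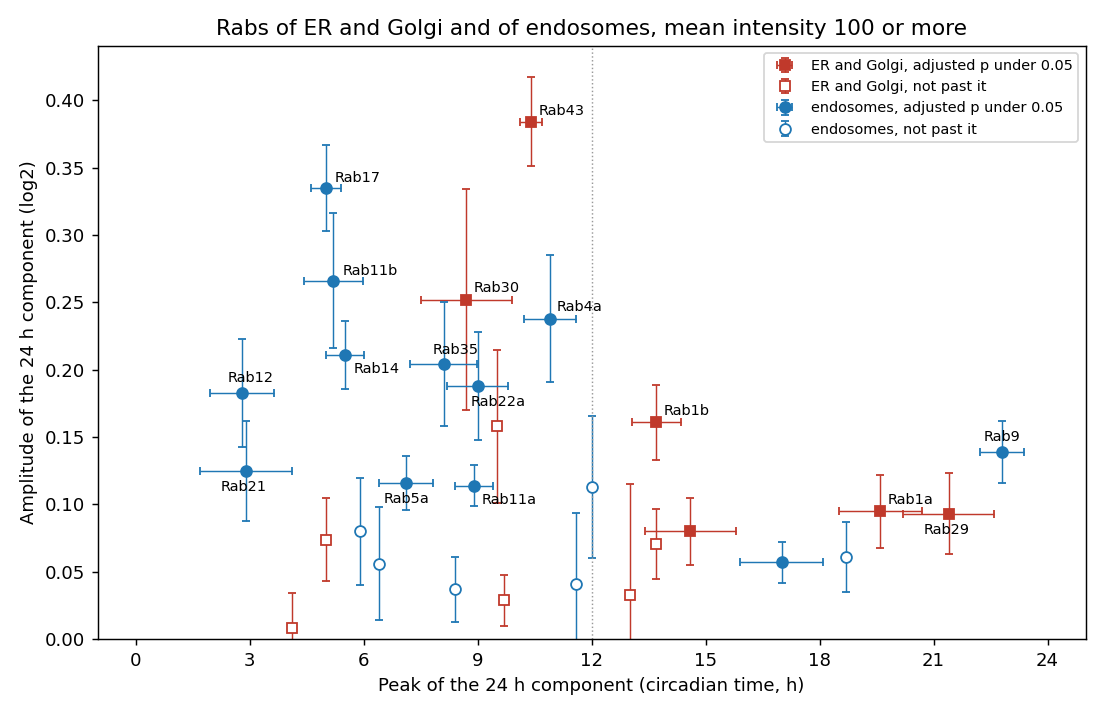
Amplitude of the 24 h component (log2) against its peak time for ER and Golgi Rabs (squares) and endosomal Rabs (circles) of mean intensity 100 or more, with standard errors of the fit; filled symbols passed the limma test and open symbols did not, and their peak errors are not drawn. Endosomal members with a component gathered before CT12 except Rab9 and Rab7b, and Rab43 was the highest point of all.

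Profiles within a location were hardly more alike than between locations. Among members of mean 100 or more the median correlation over the 48 pools was 0.05 for 66 pairs of ER and Golgi Rabs, 0.11 for 153 pairs of endosomal Rabs and 0.07 for 216 pairs across the 2 lists. All pairs share the same 48 arrays and their differences in scale. Rab3c and Rab7b, both near background at means of 119.4 and 101.4, had r = 0.92. Rab14 had r = 0.91 with Rab11b, of its own list, and 0.90 with Rab10, which carries exocytic cargo and ran from 13290 at CT61 through 19970 to 25520 at CT27. Without CT60 to CT65 these were 0.65 and 0.73, and that of Rab11b with Rab40c went from 0.79 to 0.17, so a large part of the likeness lay in the last 6 pools. Rab7b and Rab10 had the most negative value, -0.77, or -0.48 without those pools. The values of Rab10 rest on its brightest probe set. Others, at means of 8784 and 10060, had r = -0.32 and 0.55 to it. Neither had a 24 h component (limma, adjusted p = 0.168 and 0.731).

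Close paralogs were compared in 16 pairs, of which 12 had both means at 100 or more. Among these 12 the 24 h amplitude of the log2 difference ran from 0.03 ± 0.079 (SE) for Rab2a and Rab2b to 0.26 ± 0.067 for Rab8a and Rab8b, and was 0.09 ± 0.041 for Rab6a and Rab6b. The log2 difference between Rab1a and Rab1b had a 24 h amplitude of 0.19 ± 0.03, that between Rab5a and Rab5b 0.18 ± 0.034, that between Rab11a and Rab11b 0.22 ± 0.052 and that between Rab4a and Rab4b 0.23 ± 0.045. Rab5b, at 644.4 to 1090, had an amplitude of 0.06 that did not pass the test (adjusted p = 0.128). Rab8a and Rab8b, which act in exocytosis and cilia, both had a 24 h component, with Rab8b at 0.28 ± 0.066 and a peak at CT23.7 (adjusted p = 0.00402) and Rab8a at 0.15 ± 0.04 and CT19.2 (adjusted p = 0.0112). These amplitudes describe the pairs and carry no test of their own.

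The proteins that load, unload and carry Rabs moved too, and were in the 24 h class at rates near those of other bright genes. Among carriers and prenylation factors 2 of 7 were in the 24 h class (28.6%), among exchange factors 12 of 48 (25%), among GTPase-activating proteins 9 of 35 (25.7%) and among effectors 11 of 48 (22.9%), against 14.2% of all genes. Restricted to genes of mean 100 or more the shares were 28.6%, 27.3%, 32.1% and 26.8%, against 22.3%. Beyond these, Tbc1d8b had a 12 h period and Rabgef1 an 8 h period. Chm at 17.1 h, and Gdi2 and Tbc1d7 at 30 h, passed both q-values outside the named classes. At any period length 4 of 7 carriers and prenylation factors passed both (57.1%), and 13 of 48 exchange factors (27.1%). So did 11 of 35 GTPase-activating proteins (31.4%) and 11 of 48 effectors (22.9%), against 16.9% of all genes. Of genes of mean 100 or more with a 24 h component, 15 of 15 GTPase-activating proteins, 22 of 27 exchange factors and 18 of 21 effectors peaked before CT12, against 58.2% of all genes. Some members lay at this boundary within their errors. Tbc1d8 at CT12 ± 0.47 and Trappc2l at CT11.7 ± 0.42 were counted before it, and Rab11fip2 at CT12.3 ± 0.55 after it. Without CT60 to CT65 the counts were 11 of 14, 20 of 23 and 14 of 16, against 57.3%, and after quantile normalization 12 of 13, 20 of 25 and 15 of 18, against 50.1%. Carriers and prenylation factors peaked before CT12 in 2 of 5 (40%), in 3 of 6 (50%) and in 2 of 5 (40%) under the same 3 settings.

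**Figure D4:**
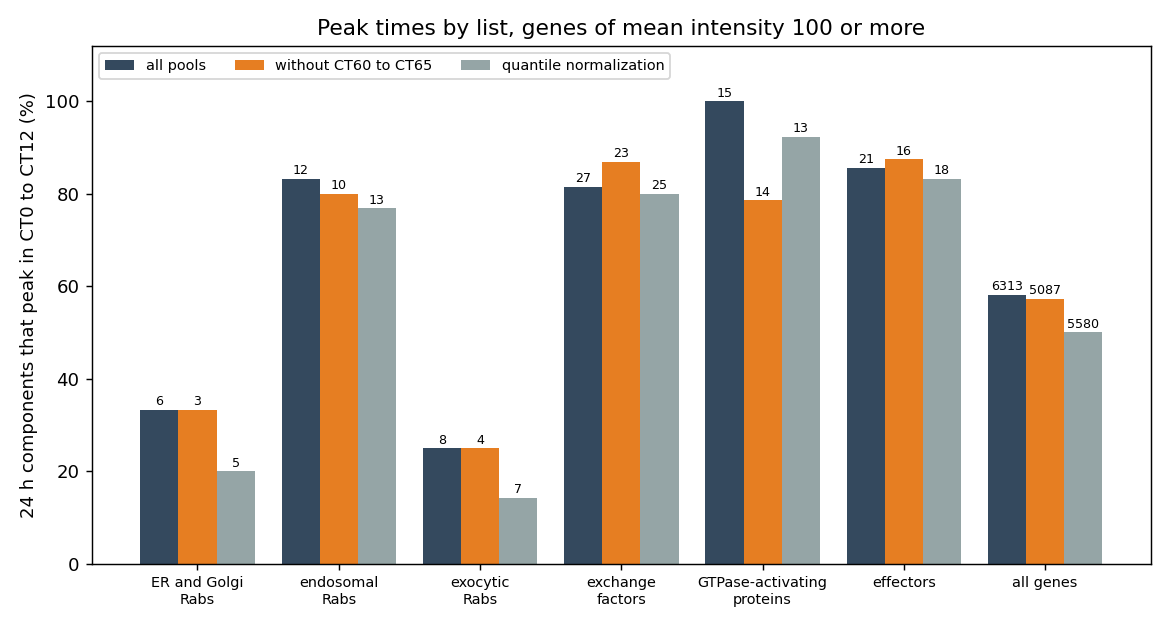
Share of 24 h components that peaked from CT0 to CT12 (percent, axis from 0) for Rab lists, their regulators and all genes of mean intensity 100 or more, in all pools, without CT60 to CT65 and after quantile normalization; the number above each bar is the number of genes with a component. Endosomal Rabs, exchange factors, GTPase-activating proteins and effectors stood above all genes, and ER and Golgi Rabs and exocytic Rabs below, in each setting.

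Single regulators had rhythms as large as any Rab gene. Tbc1d20, an ER protein that inactivates Rab1, ran from 1470 at CT46 through 2177 to 4069 at CT32, with 0.43 ± 0.043 at CT8.1 ± 0.38 (limma, adjusted p = 4.51e-10). Trappc8, a subunit of the TRAPP complex that activates Rab1, ran from 7306 at CT61 through 10720 to 12870 at CT50, with 0.18 ± 0.026 at CT0.8 ± 0.5 (adjusted p = 1.75e-06). Rab1b itself peaked in subjective night, at CT13.7, and both of these regulators in subjective day. Golga2, the Golgi tether GM130 that binds Rab1, ran from 414.2 at CT63 to 2091 at CT27 with 0.46 ± 0.059 at CT6.6 ± 0.52 (adjusted p = 1.94e-07).

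On the endosomal side Appl1, an effector of Rab5, ran from 988.1 at CT56 through 1439 to 2266 at CT26, with 0.44 ± 0.041 at CT0.7 ± 0.33 (adjusted p = 1.21e-10), several hours ahead of Rab5a at CT7.1. Rab11fip2, an effector of Rab11, peaked at CT12.3 ± 0.55 with 0.28 ± 0.043 (adjusted p = 1.07e-05), after Rab11a at CT8.9. Tbc1d15, which inactivates Rab7, had 0.31 ± 0.029 at CT7.3 (adjusted p = 5.97e-11), and Osbpl1a, a sterol-binding Rab7 effector, 0.15 ± 0.023 at CT10.5 (adjusted p = 5.85e-06). Rab7 had 0.04 ± 0.024 and did not pass the test (adjusted p = 0.404), but its other probe set at a mean of 15240, with r = 0.27 to the first, had 0.12 at CT16 and did (adjusted p = 0.0494). Dennd1b, which activates Rab35, had 0.25 ± 0.031 at CT7.9 (adjusted p = 5.81e-08), and Rab35 0.20 ± 0.046 at CT8.1 (adjusted p = 0.00258). Hps1, part of the complex that activates Rab32, had 0.23 ± 0.032 at CT4.8 (adjusted p = 1.08e-06), against CT0 for Rab32.

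Evi5 and Tbc1d24, of the TBC domain family, had 0.31 ± 0.032 at CT1.5 and 0.40 ± 0.041 at CT9.9, and Dennd5b, of the DENN domain family, 0.37 ± 0.033 at CT8.4 (adjusted p = 1.44e-09, 1.31e-09 and 3.02e-11 in that order). Among the factors common to all Rabs, Rabggtb, the catalytic subunit that attaches the prenyl groups, ran from 7219 at CT40 to 13940 at CT50 with 0.21 ± 0.032 at CT5 (adjusted p = 8.27e-06). Rabac1, which helps prenylated Rabs onto membranes, ran from 7677 at CT33 to 17780 at CT62 with 0.24 ± 0.034 at CT17.4 (adjusted p = 2.48e-06). Rabggta, the other subunit of the prenylating enzyme, had 0.05 and Chm, its escort protein, 0.04 at 24 h, and neither passed the limma test (adjusted p = 0.681 and 0.736). Chm did pass both q-values, at a cosine period of 17.1 h (G-test q = 0.0156), outside the named classes. Gdi2, a GDP dissociation inhibitor, passed both at 30 h, the end of the search. Its 24 h component was 0.11 ± 0.019 at CT10 (limma, adjusted p = 5.23e-05).

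Promoter sequences of RefSeq, build GRCm38.p6, from 250 bases before to 50 after a start site, were found for 48 of the 59 Rab genes, in 60 entries. The E-box CACGTG, the site of the clock proteins CLOCK and BMAL1, was present on either strand in 6 of 60 Rab entries (10%) and in 7.15% of 32851 promoters of all genes. The cyclic AMP response element TGACGTCA was present in 2 Rab entries (3.33% against 1.79%), the D-box (TTATGTAA, TTATATAA, TTACGTAA or TTACATAA) in 1 (1.67% against 1.59%), and the ROR response element and the ER stress response element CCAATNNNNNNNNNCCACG in 0 (0.384% and 0.119% of all). The 6 entries with an E-box belong to Rab5a, Rab20, Rab21, Rab23, Rab24 and Rab27a. Rab5a was the 1 gene called by both tests among them, and its promoter is shown because it holds 2 E-boxes, with first bases at -235 and -95, and a cyclic AMP response element at -28, counted with the start site as 0 and with no overlap. Beside it stands that of Rab24, with an E-box at position 2, which had the smallest limma p for a 24 h component among the other 5. Rab24, an atypical Rab of autophagy, ran from 3524 at CT63 through 4907 to 6253 at CT54, with a 24 h component of 0.17 ± 0.032 at CT7.2 ± 0.76 (limma, adjusted p = 0.000262), the same hour as Rab5a within the errors. The E-box genes as a set did not share this hour. Rab21 peaked at CT2.9 ± 1.2 and Rab27a at CT12 ± 1.2 (limma, adjusted p = 0.0195 and 0.0423). Rab20 and Rab23 had no 24 h component (limma, adjusted p = 0.791 and 0.878). Capitals mark the motifs. Rab5a lies on the forward strand at chr17:53478984-53479283 and Rab24 on the reverse strand at chr13:55321931-55322230, both written 5′ to 3′ in the direction of the gene. A match of letters is not evidence of binding.
Rab5a: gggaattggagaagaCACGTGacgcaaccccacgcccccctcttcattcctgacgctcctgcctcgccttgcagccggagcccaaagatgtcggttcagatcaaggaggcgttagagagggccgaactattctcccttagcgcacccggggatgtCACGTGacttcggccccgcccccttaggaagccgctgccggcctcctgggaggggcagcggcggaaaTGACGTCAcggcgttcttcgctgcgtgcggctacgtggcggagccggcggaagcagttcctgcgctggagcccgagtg
Rab24: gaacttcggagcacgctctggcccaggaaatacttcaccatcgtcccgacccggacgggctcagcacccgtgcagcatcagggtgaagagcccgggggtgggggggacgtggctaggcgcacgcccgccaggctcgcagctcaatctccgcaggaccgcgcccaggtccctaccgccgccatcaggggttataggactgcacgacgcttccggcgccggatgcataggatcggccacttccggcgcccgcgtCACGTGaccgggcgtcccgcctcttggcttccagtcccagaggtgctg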

How the data were processed

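The deposited table gives linear intensities of 45101 probe sets (Affymetrix Mouse Genome 430 2.0 array), 1 column for each of the 48 pools, and 0 columns of no sample. By their methods the authors extracted these intensities with GCRMA, which corrects background, normalizes arrays to each other and summarises probes, so a change in the overall level of an array is partly removed. The submitters' processing notes also name MAS5, and which of these gave the values was not tested. Arrays carry no read depth, and the number of pools limits the precision. Nothing but the hour is labelled, so batches of arrays were not examined.

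Values were taken to log2 with no filter. Exact p-values of Fisher's G-test were taken over 23 Fourier frequencies. A cosine fit after COSOPT was made to detrended series, with period lengths from 4 up to 30 h on a grid of 0.1 h and p from 1000 scrambled orders of the pools. Storey q-values over all probe sets had to be under 0.05 in both. Classes were 20 to 30, 10 to 14 and 7 to 9 h. limma 3.58.1 in R 4.3.3 fitted a trend and 24, 12 and 8 h pairs, with F-tests adjusted by Benjamini-Hochberg over all probe sets at 0.05. Promoters were searched for the motifs given in the text, for the D-box and for the ROR response element on both strands. Tests were tried on simulated rhythms. Other steps used numpy 2.4.6, scipy 1.17.1, pandas 2.3.3 and matplotlib 3.10.9 under Python 3.11.15.

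The annotation names 1 gene for 34958 probe sets, more for 932, which were not used, and no gene for 9211. Named Rabs were those called by both tests, the 10 ranked first by G-test p and the 4 ranked first by 24 h amplitude in each of the 2 main location lists at a mean of 100 or more, which gives 14 genes, and the 4 called members with the lowest G-test p of each list of regulators. Further Rab genes were named after their values were seen, for a paralog, a correlation, a motif or an interaction. The members and all lists were chosen with earlier results of these data known, so no list was tested. Alternatives were linear intensities, quantile normalization, Benjamini-Hochberg in place of q-values, other detrending, a Gaussian null, other probe sets, a floor of 100, stricter lists, each cycle alone, each pool left out and CT60 to CT65 left out. Peak times of lists and correlations without CT60 to CT65, and peak times after quantile normalization, were chosen after seeing the data.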

Additional observations from a re-analysis of the deposited data

Results flagged for a closer look

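The 24 h rhythm differed between the first and the second cycle in 4 Rab genes by a test of the difference itself, an interaction in limma adjusted over all probe sets: Rab32 (adjusted p = 0.0012), Rab11b (adjusted p = 0.0104), Rab40c (adjusted p = 0.0312) and Rab14 (adjusted p = 0.0314). That is 6.78% of Rab genes, against 7.1% of all genes, so the family was near the share of the array. The joint test held a cycle mean and no trend. After quantile normalization Rab32 and Rab11b passed (adjusted p = 0.0157 and 0.0299) and Rab14 and Rab40c did not (0.0676 and 0.121). Without CT60 to CT65 and the same hours of the first cycle none passed, at 0.881 for Rab32 and Rab40c, 0.907 for Rab14 and 0.919 for Rab11b, in a fit of 36 pools.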

How the results depend on the processing

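The count of 7 Rab genes in the 24 h class became 11 after quantile normalization, 3 with plain _at probe sets and 1 with either cycle alone. The 12 h count of 1 became 0 in either cycle, and the 8 h count of 1 became 0 after quantile normalization and in the first cycle. In limma the 36 genes with a 24 h component became 19 without CT60 to CT65 and 6 in the first cycle, and leaving out single pools gave 30 to 40. Over all genes of mean 100 or more the share with a 24 h component was 56.4%, and 45.5% without CT60 to CT65. The 6 with a 12 h component became 1 in either cycle (6 to 7 without single pools), and the 2 with an 8 h component became 1 without CT60 to CT65 and with plain _at probe sets and 0 in either cycle (1 to 2 without single pools). The 4 differences between cycles became 2 after quantile normalization and 0 without the late pools. For the other changes of count no share over all genes is given.

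The median 24 h amplitude of ER and Golgi Rabs minus that of endosomal Rabs was -0.041, or -0.08 with Rabs of more than one location left out, 0.01 with CT18 to CT41 alone and -0.066 with CT42 to CT65 alone (-0.046 to -0.026 without single pools). It was -0.018 without CT60 to CT65. The same difference at 12 h was -0.027, or 0.006 without CT60 to CT65 and 0.02 with CT42 to CT65 alone (-0.034 to -0.003 without single pools), and that of the share with a 24 h component between -21.9 and 4.8 percentage points, around -8.6. The direction turned in other probe sets of Rab11b (0.088) and Rab30 (0.079). No analysis paired by animal was possible, since each hour is a different pool of mice. Pools of the same hour in both cycles were not paired. The interaction of cycle with the 24 h pair compared the fitted curves of the cycles instead.

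Each fit rests on 1 array per hour over 2 cycles, so a 24 h curve is seen only 2 times, and a change that happened in the last 6 pools enters it as amplitude. The 24 h peaks of Rab probe sets near background lay close to that of the lower percentiles of the arrays. The cause of the shift after CT60 was not tested.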
